A study of Mus musculus with 89 samples.

Results

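Lung tissue of PBS-challenged mice given CuO PEG, copper oxide nanoparticles with a polyethylene glycol coating, at 40 μg/mouse was compared with lung tissue of PBS-challenged controls given no nanomaterial. The samples were chosen by their deposited labels for challenge, material and dose, which gave 3 exposed samples and 7 controls of the 89 samples in 26 groups. The study asked how uncoated (core) CuO and its coated forms act on healthy lungs and on lungs with allergic airway inflammation, and measured RNA on 2-colour arrays.

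All mice were female BALB/c, 6 to 8 weeks old. Every mouse, controls included, had been sensitised by intraperitoneal injection of ovalbumin (OVA) with alum. The controls were therefore sensitised animals that later met PBS in place of the allergen, and not untreated mice. On 4 consecutive days the exposed mice breathed in CuO PEG dispersed in PBS by oropharyngeal aspiration, in which liquid placed at the back of the throat is drawn into the lungs, and the controls received PBS alone. A piece of the left lobe was taken 24 h after the last exposure, from lungs that had first been lavaged. The comparison groups were given core CuO at 10 or 40 μg/mouse (3 samples each), CuO PEG at 2.5 μg/mouse (3 samples) or 10 μg/mouse (4 samples), OVA alone (8 samples), or OVA with CuO PEG at 40 μg/mouse (3 samples). Each sample was a pool of RNA from 2 lung samples, so n counts pools, and p-values measure the spread between such pools only. Doses were set by the mass of whole material, of which CuO PEG holds the least copper, and one label field gives the doses in mg where the others give μg.

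Chemokines are small secreted proteins that draw leukocytes into tissue: Ccl2, Ccl7 and Ccl12 act on the monocyte receptor Ccr2, and Cxcl1 and Cxcl5 on the neutrophil receptor Cxcr2. Acute phase proteins such as the serum amyloids and orosomucoids are induced by interleukin 6 and interleukin 1 in liver and also in lung epithelium and macrophages. Copper that enters a cell is bound by metallothioneins, whose genes are switched on by metals through the factor MTF1, while the haem and glutathione genes driven by Nrf2 answer oxidative stress. Alveolar macrophages, the phagocytes that live in the air spaces, carry Siglecf and depend on Pparg, and in mice they express the ribonucleases Ear1 and Ear2.

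Levels are given as log2 normalised intensity, the log2 of the median spot brightness after quantile normalisation, so that a step of 1 doubles the signal. A DEG (differentially expressed gene), also called a called gene below, differed in limma by more than 0.58 on the log2 scale in either direction, at an adjusted p under 0.05, with dye and array as terms. Fold changes are given ± SE, for 3 against 7 samples unless other groups are named, and adjusted p-values are limma's, by Benjamini-Hochberg over 22911 genes. The levels printed for single samples have dye, slide and array position taken out, while the fold changes have dye and array taken out, so that the printed fold change is not the plain difference of the printed levels. No exposed sample shared an array with a control. Exposed replicates 1 and 3 lay on slide 4 and replicate 2 on slide 5, and the 7 controls lay on all 6 slides. The share of spots well above background was 53.6% to 63.1% in the exposed samples and 53.3% to 68.4% in the controls, and 0 spots were saturated. Control replicate 4 stood apart: it was the highest of the 7 controls in 242 of the 382 genes called higher, with a median of 0.23 above the control median, and the lowest in 49 of the 117 genes called lower. Without it 473 genes were called in place of 499.

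The promoters of genes from the main groups are shown first, as 300 bases from 250 before to 50 after the annotated start of transcription (RefSeq, GRCm38.p6), 5′ to 3′ along the gene. Of 89 genes named by rule, 61 had such a window. Mt2 (chr8:94172368-94172667, plus strand) and Mt1 (chr8:94178839-94179138, plus strand) are the metallothionein genes, and capitals mark the core of the metal response element to which MTF1 binds, TGCACNC or TGCGCNC on either strand.
Mt2: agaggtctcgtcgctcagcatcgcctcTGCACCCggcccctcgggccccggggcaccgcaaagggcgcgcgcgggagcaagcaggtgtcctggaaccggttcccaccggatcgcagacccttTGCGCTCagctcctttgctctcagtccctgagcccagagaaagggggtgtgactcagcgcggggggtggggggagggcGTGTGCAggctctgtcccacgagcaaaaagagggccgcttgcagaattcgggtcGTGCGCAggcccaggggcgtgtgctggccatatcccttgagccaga
Mt1: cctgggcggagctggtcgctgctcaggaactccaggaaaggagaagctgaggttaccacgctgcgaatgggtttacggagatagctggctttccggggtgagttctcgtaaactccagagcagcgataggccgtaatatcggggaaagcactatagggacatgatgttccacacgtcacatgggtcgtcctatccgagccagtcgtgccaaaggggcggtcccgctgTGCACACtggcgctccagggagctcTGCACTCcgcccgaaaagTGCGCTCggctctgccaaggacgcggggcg
The Mt2 window held 4 such cores and the Mt1 window 3, and 25.7% of 32851 promoter windows of this length held at least 1.

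Saa3 (chr7:46715627-46715926, minus strand) had the largest fold change of all genes, and capitals mark a core of the acute phase factor C/EBP, any of TTACGCAA, TTATGCAA, TTGCGCAA and TTGTGCAA. Cxcl1 (chr5:90890995-90891294, plus strand) is a chemokine gene of the neutrophil group, and capitals mark 2 overlapping matches, 1 on each strand, to the NF-kB motif.
Saa3: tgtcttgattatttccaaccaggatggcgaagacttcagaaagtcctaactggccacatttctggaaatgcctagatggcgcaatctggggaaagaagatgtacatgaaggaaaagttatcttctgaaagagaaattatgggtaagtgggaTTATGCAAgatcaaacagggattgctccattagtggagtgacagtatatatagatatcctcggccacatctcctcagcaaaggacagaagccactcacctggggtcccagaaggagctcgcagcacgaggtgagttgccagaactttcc
Cxcl1: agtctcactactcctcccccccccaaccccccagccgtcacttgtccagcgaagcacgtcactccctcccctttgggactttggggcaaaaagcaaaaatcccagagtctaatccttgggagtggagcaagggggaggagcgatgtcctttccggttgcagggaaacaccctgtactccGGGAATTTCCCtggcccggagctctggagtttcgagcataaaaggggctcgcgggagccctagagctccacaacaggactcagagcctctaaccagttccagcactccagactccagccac
A C/EBP core stood in 2.08% of all windows and in 4 of 10 windows of the acute phase genes called higher, and the NF-kB motif stood in 8.46% of all windows. Over the whole acute phase list, called or not, a C/EBP core stood in 5 of 21 windows (23.8%).

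Mki67 (chr7:135716330-135716629, minus strand) and Top2a (chr11:99024140-99024439, minus strand) represent the cell cycle genes. Capitals mark the CCAAT box, CCAAT, and the cell cycle homology region, TTTGAA, both on either strand.
Mki67: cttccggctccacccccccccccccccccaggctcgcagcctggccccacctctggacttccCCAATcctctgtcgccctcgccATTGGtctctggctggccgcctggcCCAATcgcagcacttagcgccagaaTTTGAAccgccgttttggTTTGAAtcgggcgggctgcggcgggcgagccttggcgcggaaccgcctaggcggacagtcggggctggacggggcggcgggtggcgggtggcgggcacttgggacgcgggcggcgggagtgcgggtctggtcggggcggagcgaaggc
Top2a: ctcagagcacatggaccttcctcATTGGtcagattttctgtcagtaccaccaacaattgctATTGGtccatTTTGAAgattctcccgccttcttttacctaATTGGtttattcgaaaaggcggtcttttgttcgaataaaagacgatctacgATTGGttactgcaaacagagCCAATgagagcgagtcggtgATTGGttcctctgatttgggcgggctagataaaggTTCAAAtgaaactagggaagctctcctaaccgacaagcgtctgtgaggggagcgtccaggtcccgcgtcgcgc
The CCAAT box stood in 19 of 24 windows of the cell cycle genes called higher (79.2%) and in 37.4% of all windows. Over the whole cell cycle list, called or not, it stood in 21 of 27 windows (77.8%) and TTTGAA in 14 of 27 (51.9%). TTTGAA stood in 13 of the 24 (54.2%) and in 17.9% of all windows, and both together in 12 of the 24 and in 6.95% of all windows.

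Ear2 (chr14:44102404-44102703, plus strand) and Ear1 (chr14:43819590-43819889, minus strand) had the largest falls among called genes. Capitals mark the bases at which the aligned windows differ, including 1 base of Ear2 without a partner.
Ear2: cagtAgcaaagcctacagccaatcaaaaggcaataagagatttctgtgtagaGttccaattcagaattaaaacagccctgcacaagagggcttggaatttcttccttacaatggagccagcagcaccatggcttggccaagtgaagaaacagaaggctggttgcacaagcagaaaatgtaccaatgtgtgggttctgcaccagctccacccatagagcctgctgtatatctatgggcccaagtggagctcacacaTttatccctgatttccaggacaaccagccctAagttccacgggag
Ear1: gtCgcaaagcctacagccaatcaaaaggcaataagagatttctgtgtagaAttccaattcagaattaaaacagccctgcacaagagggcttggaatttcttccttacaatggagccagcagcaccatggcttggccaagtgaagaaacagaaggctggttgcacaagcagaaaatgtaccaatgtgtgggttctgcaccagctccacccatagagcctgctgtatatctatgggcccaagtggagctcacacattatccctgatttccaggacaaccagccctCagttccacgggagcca
Of 297 aligned pairs of bases in these promoter windows, 294 were identical (99%). Whether probes for Ear1 and Ear2 also bind RNA of the other gene was not tested. A motif match describes letters only, and binding was not measured.

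After CuO PEG at 40 μg/mouse, genes called higher than in the controls included 29 of 32 cell cycle genes. Also called higher were 4 of 5 monocyte-recruiting chemokine and receptor genes, 12 of 27 acute phase genes and the metallothioneins Mt1 and Mt2. Genes called lower included 4 of 6 eosinophil-associated ribonucleases, 6 of 20 alveolar macrophage markers, of which 1 was called higher, and 4 of 21 xenobiotic metabolism genes. Of 22911 genes, 499 were called (2.18%), 382 higher (1.67%) and 117 lower (0.511%). At an unadjusted p below 0.05 there were 3061. The median log2 fold change was 0.98 among the genes called higher, -0.85 among those called lower and -0.01 over all genes. A log2 fold change above 2 was seen in 26 genes, and one below -2 in 10. All 3 exposed samples lay above all 7 controls in 375 of the 382 and below them in 92 of the 117, while 10.6% of all genes lay above and 9.43% below. The 25 called falls that overlapped the controls included genes near background such as Olfr633, with exposed levels of 4.96, 5.74 and 5.94 against 5.45 to 6.23 in the controls. The count was 272 without exposed replicate 2, 304 without control replicate 2 and 163 against the 4 controls of slides 4 to 6 only. Within slide 4, 381 of the 382 and 109 of the 117 had the same direction in 2 exposed samples against 2 controls, and within slide 5, 382 and 111 in 1 against 1. The genes were called from these same samples, so like directions were favoured by the choice and are no separate test.

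**Figure D1:**
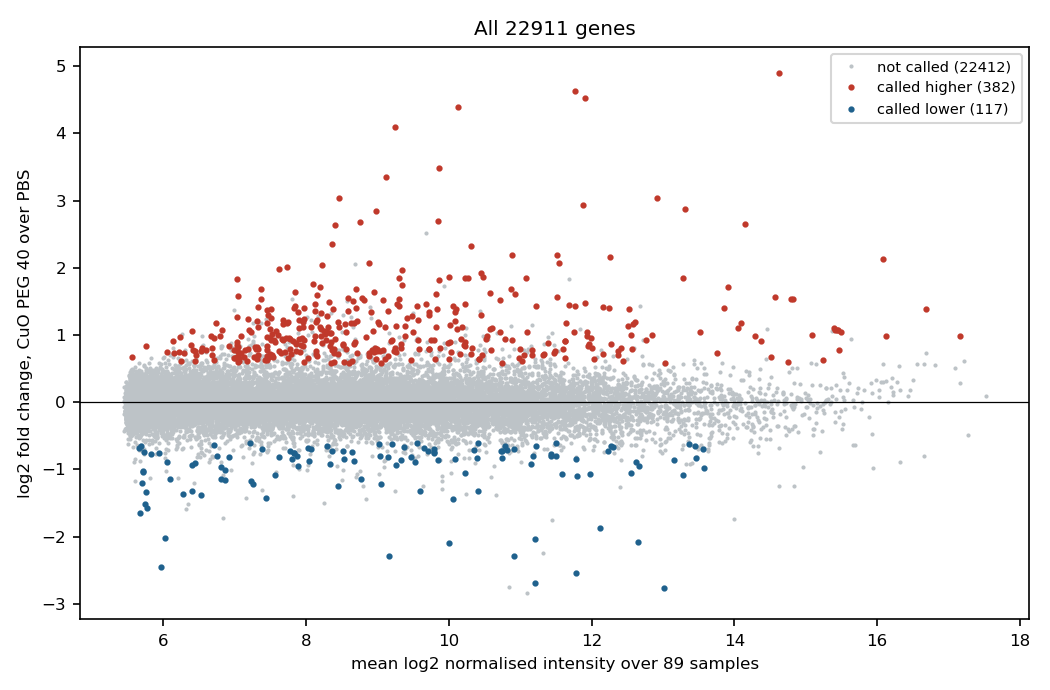
Log2 fold change of CuO PEG 40 over PBS controls (vertical axis) against the mean log2 normalised intensity over 89 samples (horizontal axis) for 22911 genes, 1 point per gene. The 382 genes called higher are red and the 117 called lower blue, and the rises reach further from 0 (4.90) than the called falls (-2.77).

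**Figure D2:**
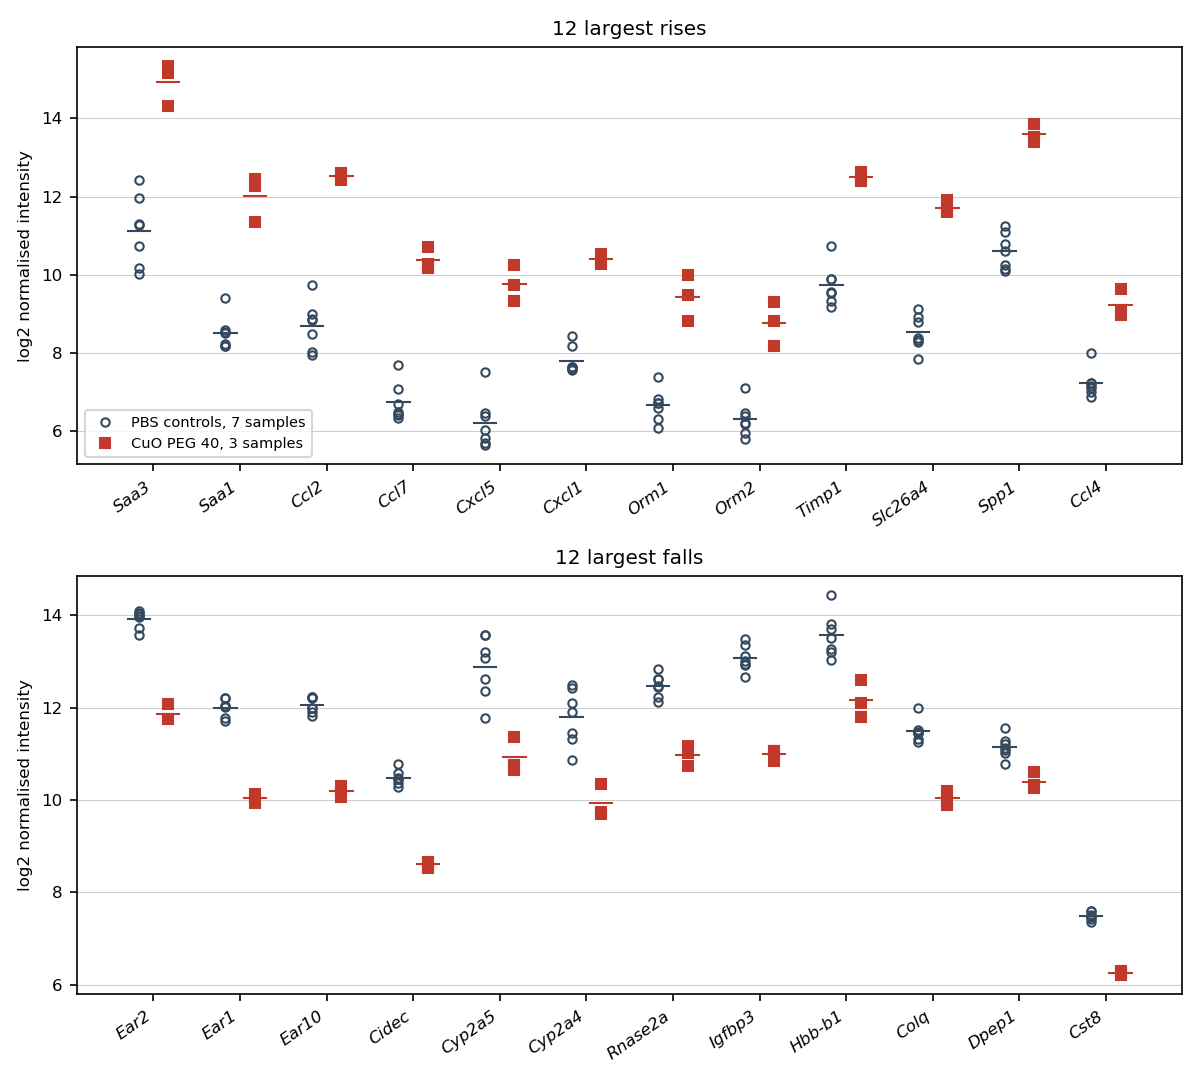
Log2 normalised intensity (vertical axis) of the 12 largest rises (upper panel) and the 12 largest falls (lower panel) among called genes without overlap, with the 7 PBS controls as open circles, the 3 CuO PEG 40 samples as filled squares and lines at the means. In each of the 24 genes the squares lie wholly above or wholly below the circles.

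The list of chemokines that attract monocytes and of their receptor Ccr2 had the highest median of the 39 lists. Ccl2 stood at 12.43, 12.58 and 12.61 in the exposed samples and between 7.94 and 9.75 (median 8.84) in the controls. Its log2 fold change was 4.52 ± 0.56, 23.0-fold (adjusted p = 4.5e-05). Ccl7, a second ligand of Ccr2, stood at 10.18, 10.27 and 10.70 against 6.34 to 7.69 (median 6.50). It rose by 4.40 ± 0.56 (adjusted p = 6.21e-05), and as with Ccl2 every exposed sample was above every control. Ccl12, the third ligand of this group, stood at 9.40, 9.38 and 9.63 against 6.54 to 7.84 (median 7.08) and rose by 2.70 ± 0.42 (adjusted p = 4.65e-04). The receptor Ccr2, which marks inflammatory monocytes, stood at 8.88, 8.88 and 9.06 against 7.73 to 8.08 (median 7.94) and rose by 1.20 ± 0.24 (adjusted p = 0.0056). With these 4 of 5 members called higher, the median log2 fold change of the list was 2.70, against -0.01 over all genes. The fifth member, Ccl8, had a log2 fold change of 1.43 and did not pass (adjusted p = 0.339), although its exposed samples also lay above all controls.

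Of the ligands of the neutrophil receptor, Cxcl5 and Cxcl1 rose. Cxcl5, made mainly by lung epithelium, stood at 9.34, 10.26 and 9.73 in the exposed samples and at 5.64 to 7.52 (median 6.04) in the controls. The log2 fold change was 4.10 ± 0.57 (adjusted p = 1.68e-04), and 4 of the 7 controls had the gene well above background. Cxcl1, the mouse counterpart of the GRO chemokines, whose promoter is shown above, stood at 10.27, 10.54 and 10.38 against 7.56 to 8.43 (median 7.64) and rose by 3.48 ± 0.45, 11.2-fold (adjusted p = 7.04e-05). Csf2 encodes GM-CSF, a growth factor of macrophages and granulocytes. It stood at 8.58, 8.92 and 8.76 against 7.38 to 7.77 (median 7.56) and rose by 1.23 ± 0.23 (adjusted p = 0.00247). These 3 of 14 members were called, and the median of the list was 0.58. Further ligands of the receptor did not pass: Cxcl2 had a log2 fold change of 0.59 (adjusted p = 0.388), Cxcl3 one of 1.37 (adjusted p = 0.129) and Ppbp one of 0.20 (adjusted p = 0.887). Csf3, Il17a, Il17f and Il23a were well above background in 0 of the 10 samples.

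Of the other chemokines, 5 of 25 measured rose, with a list median of 0.43. Ccl4 and Ccl3 are chemokines released by activated macrophages. Ccl4 stood at 9.09, 8.97 and 9.63 against 6.88 to 8.00 (median 7.15) and rose by 2.85 ± 0.57 (adjusted p = 0.00522). Ccl3 stood at 9.21, 9.41 and 9.51 against 7.10 to 8.07 (median 7.24) and rose by 2.69 ± 0.41 (adjusted p = 4e-04). Control replicate 4 was the highest control for both, and the exposed samples still lay above it. Ccl17, a ligand of Ccr4 on Th2 cells, stood at 10.75, 10.97 and 10.71 against 8.19 to 9.26 (median 8.43), without overlap, and rose by 2.32 ± 0.35 (adjusted p = 3.91e-04). Ccl9 rose by 1.42 ± 0.26, and Cxcl12, a ligand of Cxcr4, by 0.81 ± 0.21.

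The acute phase list had 12 of 27 measured members called higher and 0 lower, with a median log2 fold change of 0.94. Saa3, the serum amyloid made outside the liver, stood at 15.34, 14.32 and 15.16 in the exposed samples and at 10.02 to 12.41 (median 11.27) in the controls. It had the largest log2 fold change of the 22911 genes, 4.90 ± 0.71, 29.9-fold (adjusted p = 2.28e-04). Saa1 stood at 12.45, 11.34 and 12.28 against 8.18 to 9.41 (median 8.51) and rose by 4.63 ± 0.55 (adjusted p = 3.86e-05). For both amyloids exposed replicate 2 was the lowest of the 3 and yet above every control. The orosomucoids, serum glycoproteins that bind small molecules, followed: Orm1 stood at 9.47, 8.83 and 10.00 against 6.10 to 7.40 (median 6.72) and rose by 3.35 ± 0.59 (adjusted p = 0.00168). Orm2 stood at 8.81, 8.19 and 9.32 against 5.79 to 7.11 (median 6.21) and rose by 3.05 ± 0.56 (adjusted p = 0.00265). Lcn2, lipocalin 2, which withholds iron from bacteria, stood at 14.71, 14.36 and 14.66 against 11.56 to 12.66 (median 12.11) and rose by 2.65 ± 0.45 (adjusted p = 0.00127). Cd14, the co-receptor for bacterial lipopolysaccharide, stood at 11.82, 11.91 and 11.98 against 9.74 to 10.22 (median 9.94) and rose by 2.19 ± 0.26 (adjusted p = 3.86e-05). The other members called higher were Saa2 (2.64), Steap4 (2.04), Serpina3n (1.68), Itih4 (1.43), Hp (0.99) and Cp (0.64). In the list 19 of the 27 lay above all controls, as did 10.6% of all genes.

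Of the cytokines 18.75% were called, of the NF-kB list 20% and of the JAK-STAT3 list 16.7%, against 2.18% of all genes. The NF-kB and JAK-STAT3 lists, called feedback genes below, also hold factors of the pathways such as Relb and Stat3. Il6, a main inducer of acute phase proteins, stood at 6.80, 6.67 and 6.78 against 5.49 to 6.22 (median 5.80) and rose by 1.59 ± 0.32 (adjusted p = 0.00549), with 2 of 7 controls well above background. Il33, an epithelial alarmin, stood at 9.98, 9.90 and 10.16 against 8.81 to 9.32 (median 9.07) and rose by 1.12 ± 0.24 (adjusted p = 0.00941). Csf1, the macrophage growth factor, rose by 0.78 ± 0.19 (adjusted p = 0.0271), a call that was lost in 9 of 20 alternative settings. Those 3 were the called members of 16 cytokines measured (median 0.63). Tnf stood at 7.09, 7.11 and 7.39 against 6.44 to 6.67 (median 6.51), without overlap, but its log2 fold change of 0.89 ± 0.30 did not pass (adjusted p = 0.137). Of 20 NF-kB feedback genes 4 rose (median 0.41): Tnip3 by 1.68, Bcl3 by 0.91, Sod2, the mitochondrial superoxide dismutase, by 0.81, and the NF-kB inhibitor Nfkbie by 0.80, with the call of Sod2 lost in 7 of 20 alternative settings. Of 12 JAK-STAT3 feedback genes 2 rose (median 0.39), Bcl3 and the cytokine signalling inhibitor Socs3 (0.86 ± 0.20). Interferon-stimulated genes had 0 of 19 called and a median of 0.06. Cxcl10 of that list stood at 9.10, 9.34 and 9.77 against 6.68 to 7.92 (median 7.19) with a log2 fold change of 2.52 ± 0.79 (adjusted p = 0.103).

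Metallothionein and copper genes showed a rise of few members, 18.2% of the list against 2.18% of all genes called. Mt2 stood at 12.80, 12.60 and 12.78 in the exposed samples and at 11.23 to 12.14 (median 11.52) in the controls. It rose by 1.85 ± 0.27, 3.61-fold (adjusted p = 2.82e-04), and control replicate 4 was the highest control. Mt1 stood at 10.65, 10.29 and 10.47 against 9.78 to 10.45 (median 10.04), so that exposed replicate 2 lay within the range of the controls. Its log2 fold change was 0.80 ± 0.16 (adjusted p = 0.00667), and the call was lost in 6 of 20 alternative settings. Neither of the 2 Mt1 probes was called alone in limma (0.93, adjusted p = 0.0572, and 0.67, adjusted p = 0.198). Steap4 is a metalloreductase that reduces iron and copper and is induced in inflammation. It stood at 8.67, 8.54 and 8.45 against 6.76 to 7.27 (median 6.93) and rose by 2.04 ± 0.28 (adjusted p = 1.57e-04). Cp encodes ceruloplasmin, the copper-carrying ferroxidase of plasma and an acute phase protein. It stood at 10.14, 10.07 and 10.00 against 9.44 to 9.55 (median 9.51) and rose by 0.64 ± 0.15 (adjusted p = 0.0172), though its 4 probes gave 1.40, 1.22, 0.07 and -0.12. The 18 other members of the list of 22 were not called, among them the importer Slc31a1 (0.03), the exporters Atp7a (-0.14) and Atp7b (-0.16), the copper chaperone Ccs (-0.03), Mtf1 (-0.01) and the zinc exporter Slc30a1 (-0.20). The median of the list was 0.00.

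Nrf2 targets were mixed. Hmox1, haem oxygenase 1, stood at 11.37, 11.23 and 11.46 against 8.17 to 10.83 (median 10.17) and rose by 1.47 ± 0.28 (adjusted p = 0.00284). Control replicate 1 set the low end of that range. Akr1b8, an aldo-keto reductase, stood at 12.75, 12.72 and 12.53 against 11.63 to 12.18 (median 11.83) and rose by 1.13 ± 0.21 (adjusted p = 0.00261). Gclc, the catalytic subunit of the first enzyme of glutathione synthesis, stood at 12.18, 12.22 and 12.09 against 11.11 to 11.44 (median 11.30) and rose by 0.95 ± 0.18 (adjusted p = 0.0033). Gstm1, a glutathione transferase, moved the other way, from 13.38 to 13.87 (median 13.64) in the controls to 12.69, 12.87 and 12.74, a fall of 1.06 (log2 fold change -1.06 ± 0.20, adjusted p = 0.00315). The list therefore had 3 of 26 members called higher and 1 lower, with a median of 0.26. Nqo1 (0.39), Srxn1 (0.37), Txnrd1 (0.42) and Gclm (0.18), further targets of Nrf2, were not called. Of 17 heat shock genes 1 was called, the small chaperone Cryab at -0.62 ± 0.13, and it was lost in 7 of 20 alternative settings. Hspa1a, the inducible Hsp70, stood at 11.59, 11.08 and 11.63 against 9.40 to 11.38 with a log2 fold change of 1.84 ± 0.72 (adjusted p = 0.234). Of 18 p53 targets 0 were called (median 0.09), and Cdkn1a, which encodes the cell cycle inhibitor p21, had a log2 fold change of 0.15.

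Genes of the cell cycle formed the list with the largest share of called members, 29 of 32, all higher, with a median of 1.19. Of its members 31 lay above all controls, as did 10.6% of all genes. Mki67, the marker of cycling cells, stood at 10.85, 11.08 and 11.11 in the exposed samples and at 8.73 to 9.62 (median 8.97) in the controls. It rose by 1.85 ± 0.19, 3.60-fold (adjusted p = 1.31e-05). Rrm2, which supplies deoxynucleotides in S phase, stood at 10.33, 10.41 and 10.36 against 8.14 to 9.08 (median 8.32) and rose by 1.92 ± 0.22 (adjusted p = 3.69e-05). The exposed samples of both genes lay close together and above every control. Ccna2, cyclin A2, stood at 9.17, 9.30 and 9.21 against 6.99 to 7.88 (median 7.12) and rose by 1.84 ± 0.24 (adjusted p = 8.69e-05). Top2a, the topoisomerase that untangles DNA in mitosis, stood at 9.22, 9.28 and 9.15 against 7.18 to 7.81 (median 7.35) and rose by 1.75 ± 0.19 (adjusted p = 2.34e-05). The replication helicase subunits Mcm2 to Mcm6 rose by 0.70 to 0.93, and mitotic kinases and their partners more: Aurka by 1.47, Cdk1 by 1.39, Plk1 by 1.15 and Cdc20 by 1.63. Without control replicate 4, 28 members were called.

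Genes of matrix and repair rose in part. Timp1, an inhibitor of matrix metalloproteinases, stood at 12.45, 12.40 and 12.63 against 9.19 to 10.75 (median 9.57) and rose by 3.04 ± 0.51 (adjusted p = 0.00114). Spp1, osteopontin, which activated macrophages secrete, stood at 13.40, 13.85 and 13.53 against 10.11 to 11.24 (median 10.60) and rose by 2.88 ± 0.29, 7.35-fold (adjusted p = 1.31e-05). Neither gene overlapped between the groups, which held for 375 of the 382 genes called higher. Of 24 wound matrix genes 7 were called, all higher (median 0.55): Spp1, thrombospondin 1 (Thbs1, 1.28 ± 0.25), the collagens Col1a1 (1.19 ± 0.30) and Col3a1 (1.11 ± 0.22), Tgfbi (1.04), tenascin (Tnc, 0.98) and fibronectin (Fn1, 0.83). The call of Col1a1 was lost in 6 of 20 alternative settings. Of 19 metalloproteinases and inhibitors Timp1 and Mmp3 (1.13 ± 0.25) were called. Slc26a4, the anion exchanger pendrin of airway epithelium, belonged to no list. It stood at 11.62, 11.90 and 11.60 against 7.85 to 9.13 (median 8.39) and rose by 2.93 ± 0.46 (adjusted p = 5.6e-04). Mab21l3 was well above background in all 3 exposed samples and in 0 controls and was at least 3.25-fold higher (adjusted p = 3.41e-04), counted against the lowest signal that stands above background.

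Among called genes, the 3 largest falls were in eosinophil-associated ribonucleases. Ear2 stood at 11.75, 11.75 and 12.09 in the exposed samples and at 13.58 to 14.09 (median 13.97) in the controls. The log2 fold change was -2.77 ± 0.37, 6.81-fold lower (adjusted p = 1.01e-04). Ear1 stood at 10.06, 9.94 and 10.13 against 11.70 to 12.21 (median 12.02) and had a log2 fold change of -2.69 ± 0.34 (adjusted p = 5.7e-05). Their promoters are the pair shown above. Ear10 stood at 10.17, 10.07 and 10.30 against 11.83 to 12.24 (median 12.00), with -2.54 ± 0.30 (adjusted p = 3.86e-05), and Rnase2a at 11.01, 10.74 and 11.16 against 12.11 to 12.83 (median 12.47), with -2.08 ± 0.37 (adjusted p = 0.00196). All 4 are members of 1 gene family, and whether their probes share targets was not tested. The other members were Ear6 at -0.93 (adjusted p = 0.157) and Rnase2b, which was well above background in 0 of the 10 samples. The median over the 6 was -2.31.

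Some alveolar macrophage markers fell and some inflammatory monocyte and macrophage markers rose. Of 20 alveolar macrophage markers 6 were called lower and 1 higher, with a median of -0.71. Besides Ear1 and Ear2 these were Cidec, a lipid droplet protein, at 8.53, 8.66 and 8.62 against 10.29 to 10.77 (median 10.46), with -2.29 ± 0.42 (adjusted p = 0.00266), and Siglecf, at 8.13, 7.65 and 8.03 against 8.85 to 9.32 (median 9.14), with -1.15 ± 0.18 (adjusted p = 4.83e-04). The cholesterol exporter Abcg1 (-1.07 ± 0.19) and the lipid-sensing factor Pparg (-0.89 ± 0.17) were the others called lower. Fabp5 was called higher (0.98 ± 0.26). The mean over the list was 9.39 to 9.48 in the exposed samples and 9.96 to 10.10 in the controls. Marco (-1.15, adjusted p = 0.459) and Itgax (-0.41, adjusted p = 0.406), further markers of these cells, were not called. Of 26 inflammatory monocyte and macrophage markers 9 were called, all higher (median 0.95), with a list mean of 10.40 to 10.67 against 9.29 to 9.71. The called members included Saa3, Cd14, Spp1, Thbs1 and Ccr2, which were already counted in other lists above. The scavenger receptor Msr1 rose by 1.64 ± 0.24, Trem2 by 1.18 ± 0.26 and Clec4n by 1.04 ± 0.19, while Ly6c2 had a log2 fold change of -0.29 and Chil3 one of -0.96, neither of them called. In pieces of whole lung, fewer cells of a type and less RNA per cell cannot be told apart.

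Most neutrophil markers were not called, but the share called, 14.8%, was above the 2.18% of all genes. The lungs had been lavaged before sampling. The study counted neutrophils in that lavage and reported an influx after the CuO materials. In its account CuO NH3 and CuO COOH drew more of these cells than CuO PEG did. Of 27 measured, 3 were called higher and 1 lower, with a median of 0.50 and a list mean of 8.95 to 9.13 in the exposed samples against 8.66 to 8.86. Those called higher were Lcn2, which epithelium also makes, the decoy receptor Il1r2 (2.01 ± 0.37, adjusted p = 0.00264) and the lectin Clec4d, at 10.41, 10.42 and 10.65 against 8.47 to 9.50 (median 8.91), with 1.85 ± 0.26 (adjusted p = 2.08e-04). The formyl peptide receptor Fpr2 was called lower (-1.06 ± 0.29, adjusted p = 0.0497), a call that was lost in 12 of 20 alternative settings. The granule and calgranulin genes were not called: S100a8 had a log2 fold change of 0.80 (adjusted p = 0.622), S100a9 one of 0.64 (adjusted p = 0.721) and Mpo one of 0.01 (adjusted p = 0.987). Cxcr2, the receptor itself, had one of 1.41 (adjusted p = 0.101).

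Of 21 genes of xenobiotic metabolism 4 were called, all lower, with a median of -0.61 and 19 members below 0. Cyp2a5, a cytochrome P450 of airway epithelium, stood at 10.76, 11.36 and 10.65 against 11.78 to 13.58 (median 13.08) and had a log2 fold change of -2.28 ± 0.55 (adjusted p = 0.0223). Its near copy Cyp2a4, which may share probe targets, had -2.10 ± 0.46 (adjusted p = 0.0104). On slide 5 alone these 2 differed by -0.25 and -0.23, and on slide 4 by -2.28 and -2.19. The carboxylesterase Ces1f (-1.003 ± 0.247), Cyp4b1 (-0.96 ± 0.24) and the monooxygenase Fmo1 (-0.86 ± 0.20) were the others of the list, with the call of Cyp4b1 lost in 7 of 20 alternative settings. Igfbp3, which binds insulin-like growth factors in the extracellular space, stood at 11.07, 11.06 and 10.85 against 12.66 to 13.49 (median 13.01) and had a log2 fold change of -2.03 ± 0.25 (adjusted p = 4.5e-05). Colq, the collagen tail of acetylcholinesterase, had -1.44 ± 0.30, the dipeptidase Dpep1 -1.32 ± 0.25 and the cystatin Cst8 -1.32 ± 0.28. These 4 belong to the 12 largest falls, which were chosen for lack of overlap between the groups, so their lack of it is no finding.

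Hbb-b1, a beta globin gene, stood at 11.81, 12.09 and 12.60 in the exposed samples and at 13.04 to 14.43 (median 13.52) in the controls, with a log2 fold change of -1.87 ± 0.50 (adjusted p = 0.0441), and this call was lost in 10 of 20 alternative settings. Of the 8 erythrocyte markers measured, a list without Hbb-b1, 0 were called in limma, with a median of -0.72 and a list mean of 10.51 to 10.81 against 10.88 to 11.28. Cardiac muscle markers had a median of -1.25 and 0 of 10 called, with list means of 8.43 to 9.47 against 8.74 to 10.71. The part of blood or heart tissue in any result was not tested.

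Few markers of other lung cells were called, but the share was above the 2.18% of all genes in some lists. It was 5% for endothelial, 7.69% for alveolar type 1, 10% for alveolar type 2 and 11.1% for fibroblast and smooth muscle markers. Endothelial markers had 1 of 20 called, the lipase anchor Gpihbp1 (-0.86 ± 0.19, adjusted p = 0.0132), but the log2 fold change of each of the 20 was below 0 (median -0.47). Alveolar type 1 markers had 1 of 13 called, Cav1 at -0.62 ± 0.16 (median -0.42), a call lost in 8 of 20 alternative settings and made by neither of its 2 probes alone. Alveolar type 2 markers had 2 of 20 called, Lcn2 and Sftpd (median 0.11). Sftpd encodes surfactant protein D, a collectin that binds microbes. It stood at 16.99, 16.96 and 16.74 against 15.89 to 16.05 (median 16.00) and rose by 1.38 ± 0.17 (adjusted p = 5.23e-05). Sets with 0 called were T cell markers (24, median 0.13), B cell markers (15, -0.23), NK cell markers (13, 0.10), dendritic cell markers (13, 0.04), mast cell markers (9, -0.14), platelet markers (11, 0.20), ciliated cell markers (14, -0.09) and club and goblet cell markers (18, -0.50). Of 18 fibroblast and smooth muscle markers Col1a1 and Col3a1 were called, and the median was -0.14. Of 9 eosinophil markers Siglecf was called, and Epx and Prg3, which define eosinophils, were well above background in 0 of the 10 samples.

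**Figure D3:**
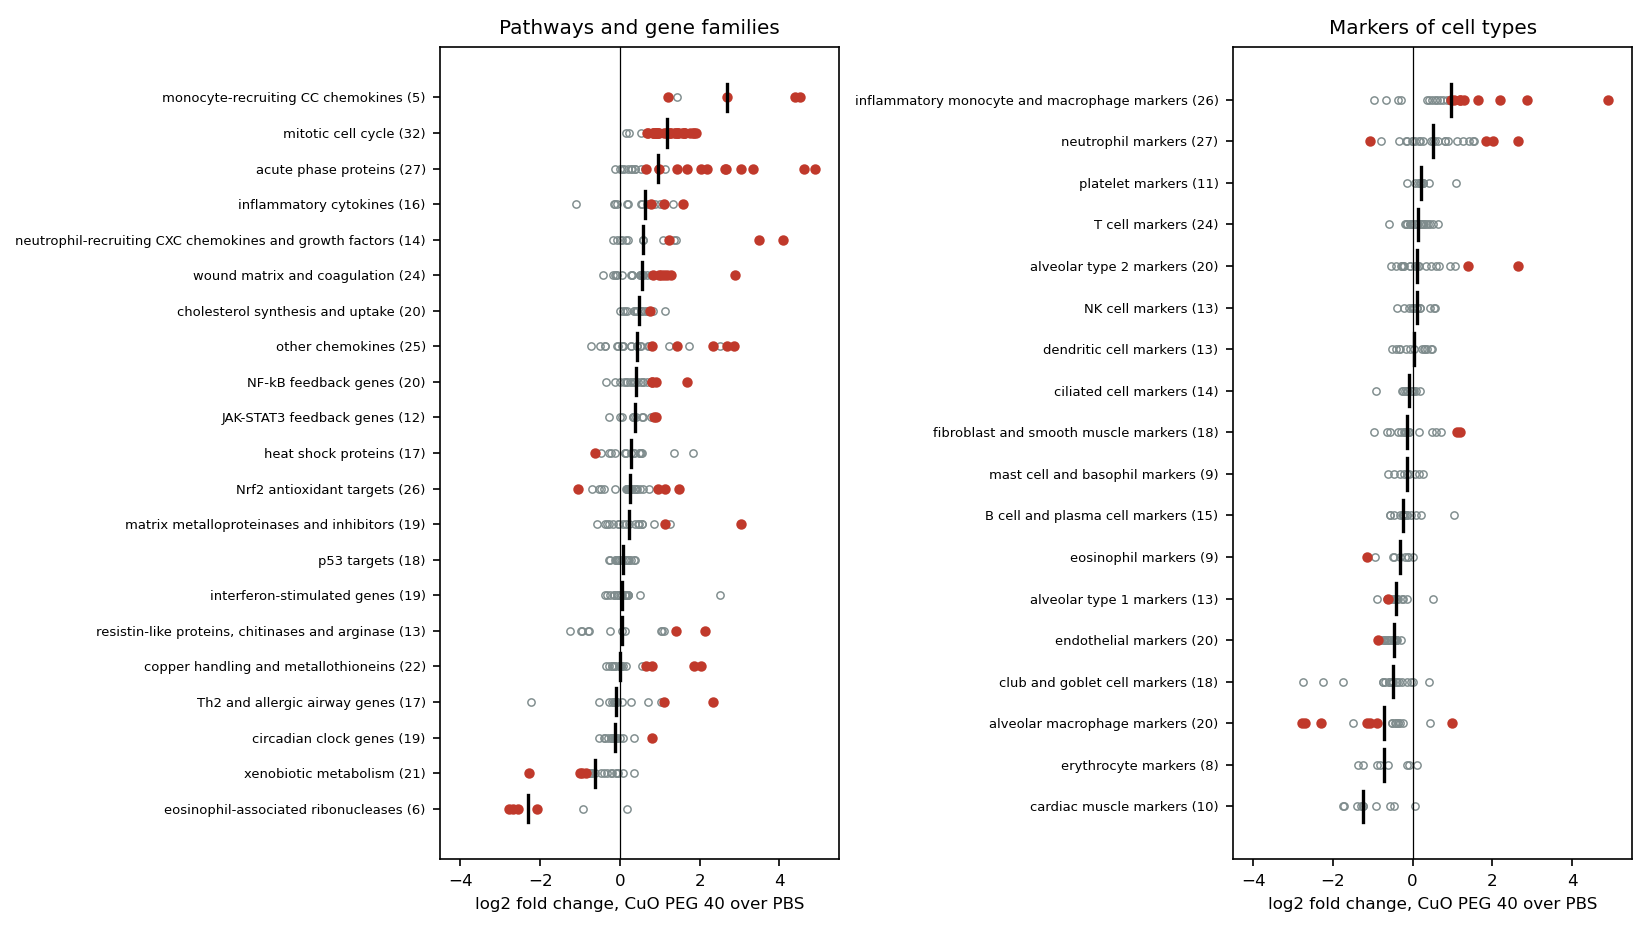
Log2 fold change of CuO PEG 40 over PBS controls (horizontal axis) for each measured member of 39 gene lists (vertical axis, number measured in brackets), pathways and families on the left and cell type markers on the right. Filled points were called, open points were not and black bars are list medians, which run from 2.70 for monocyte-recruiting CC chemokines to -2.31 for eosinophil-associated ribonucleases.

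Genes of allergic inflammation were for the most part not called. Of 17 on the list, Ccl17 and Il33 rose (11.8%, against 2.18% of all genes called) and 15 did not pass (median -0.10). Ccl11, eotaxin, stood at 7.86, 7.60 and 7.73 against 6.81 to 7.37 (median 7.03), without overlap, but its log2 fold change was 0.28 ± 0.29 (adjusted p = 0.784) and below 0 in 3 of the alternative settings. Ccl24 had 0.70 ± 0.48 (adjusted p = 0.596). Il4 had -0.06 ± 0.36 (adjusted p = 0.972), and Il13, well above background in 1 of the 10 samples, had -0.14 ± 0.15 (adjusted p = 0.794). The gel-forming mucins stood within the range of the controls in part: Muc5ac at 7.23, 6.84 and 6.82 against 6.05 to 7.13 (-0.51 ± 0.67, adjusted p = 0.839) and Muc5b at 10.14, 10.48 and 10.27 against 9.52 to 10.73 (-0.27 ± 0.59, adjusted p = 0.918). Retnla, a resistin-like protein of alternatively activated macrophages and airway epithelium, stood at 14.59, 15.81 and 15.40 against 12.78 to 14.05 (median 13.12). It rose by 2.14 ± 0.51 (adjusted p = 0.0223), with a difference of 0.77 on slide 4 alone and 3.46 on slide 5 alone. The call of Retnla was lost in 5 of 20 alternative settings, among them leaving out any 1 exposed replicate. Arg2, an arginase, rose by 1.40 ± 0.24. They were 2 of 13 called on their list (median 0.05).

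Among metabolic lists, cholesterol synthesis had 1 of 20 called, farnesyl diphosphate synthase (Fdps, 0.77 ± 0.19, adjusted p = 0.0279), but a median of 0.48. In this list 16 members lay above all controls, as did 10.6% of all genes. Idi1 (1.14, adjusted p = 0.0523), Sqle (0.83, adjusted p = 0.0671) and Cyp51 (0.72, adjusted p = 0.0631), all enzymes of the pathway, did not pass. Circadian genes had 1 of 19 called, Nfil3 (0.80 ± 0.20, a call lost in 6 of 20 alternative settings), with a median of -0.13.

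The lower doses of CuO PEG show where these genes stood below 40 μg/mouse. Against the same 7 controls, 0 genes were called in limma at 2.5 μg/mouse (0%, with 1004 at an unadjusted p below 0.05) and 98 at 10 μg/mouse (0.428%). Since all comparisons with PBS share these controls, their values are set side by side. Ccl2 had log2 fold changes of -0.33, 1.72 and 4.52 at 2.5, 10 and 40 μg/mouse, Saa3 of -0.61, 2.77 and 4.90, and Mki67 of -0.41, 0.97 and 1.85. Mt2 had -0.20, 0.18 and 1.85, and Hmox1 -0.43, 0.17 and 1.47. Ear2 had -0.08, -0.62 and -2.77. Cell cycle genes had 16 of 32 called at 10 μg/mouse and copper genes 1 of 22, Steap4. Tested directly, 40 against 10 μg/mouse (3 against 4 samples), 20 genes were called (0.0873%), 9 higher and 11 lower. Higher at 40 were Spp1 (1.84 ± 0.32), Mt2 (1.68 ± 0.30) and the immediate early gene Egr1 (1.65 ± 0.32), each with an adjusted p of 0.0467, and also Akr1b8 (1.18 ± 0.23). Lower were Ear1 (-2.17 ± 0.38), Ear2 (-2.15 ± 0.40), Ear10 (-1.90 ± 0.33), Npr3, the clearance receptor of natriuretic peptides (-1.58 ± 0.24, adjusted p = 0.0289), Igfbp3 (-1.43 ± 0.27) and Abcg1 (-1.05 ± 0.21). Ccl2 (2.80, 95% interval 1.53 to 4.07, adjusted p = 0.0862) and Mki67 (0.88, 0.45 to 1.31, adjusted p = 0.108) did not pass. The count fell to 0 without exposed replicate 2 or 3 or without CuO PEG 10 replicate 3 or 4, to 1 without CuO PEG 10 replicate 1 or 2, and was 38 without exposed replicate 1.

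Core CuO lacks the polyethylene glycol coating and holds more copper per mass, so coating and copper dose cannot be told apart here. At the same mass dose of 40 μg/mouse 3218 genes were called against PBS (14%). Between CuO PEG 40 and CuO 40 (3 against 3 samples), 466 genes were called (2.03%), 181 higher after CuO PEG (0.79%) and 285 lower (1.24%). The materials lay on different slides, CuO on slides 1 to 3 and CuO PEG on slides 4 to 6, and were linked through the other samples of the fit. The count was 72 without CuO PEG 40 replicate 1 and 0 without CuO 40 replicate 2. Of 22 copper genes 3 were called lower after CuO PEG (median -0.10), of 26 Nrf2 targets 2 (median -0.25) and of 17 heat shock genes 0 (median -0.59). Mt2 was lower by 2.29 (95% interval -3.08 to -1.51, adjusted p = 0.00396), Mt1 by 1.81 (-2.28 to -1.34, adjusted p = 4.93e-04) and Hmox1 by 2.49 (-3.28 to -1.70, adjusted p = 0.00291). Cell cycle genes were lower in 17 of 32 cases, Mki67 with -1.07 (-1.61 to -0.53, adjusted p = 0.0318) and Top2a with -1.30 (-1.84 to -0.76, adjusted p = 0.0134). Spp1 was lower by 1.97 (-2.82 to -1.12, adjusted p = 0.0152). The largest differences were in Retnlb (-4.44 ± 0.58), lactoferrin (Ltf, -3.98 ± 0.81) and the mucosal protein Dmbt1 (-3.22 ± 0.62), none of them called for CuO PEG 40 against PBS.

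Genes higher after CuO PEG 40 than after CuO 40 were led by Fabp1 (3.38 ± 0.72, adjusted p = 0.0176), a fatty acid binding protein, the endothelial proteoglycan Esm1 (2.88 ± 0.47) and granzyme A (Gzma, 2.82 ± 0.46). Fabp1 stood at 9.01, 8.38 and 8.33 after CuO PEG 40, at 9.67 to 10.38 in the controls and at a mean of 6.08 after CuO 40. T cell markers were higher after CuO PEG in 9 of 24 cases, with a median of 1.03. The chemokines did not pass: Ccl2 differed by -0.56 (-2.15 to 1.04, adjusted p = 0.815) and Cxcl1 by -0.36 (-1.65 to 0.93, adjusted p = 0.864). These intervals reach past 1 on the log2 scale in at least 1 direction, so that like responses were not shown. Saa3 differed by -1.26 (-3.29 to 0.77, adjusted p = 0.607), and of 27 acute phase genes 4 were called lower. The ribonuclease Ear2 had a difference of 1.44 (0.39 to 2.50, adjusted p = 0.144) and did not pass.

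Core CuO at 10 μg/mouse gave 816 called genes against PBS (3.56%). Directly between CuO PEG 40 and CuO 10, at doses that differ in mass but lie nearer in copper, limma called 0 genes (0%). At an unadjusted p below 0.05 there were 1057. The count was 29 with slide and position in place of the array and 730 where arrays were modelled as random. Like responses were not shown by the 0 calls, since in simulated data this comparison called 60 of 100 genes changed by 1 log2. Side by side against PBS, Ccl2 had 4.52 after CuO PEG 40 and 4.32 after CuO 10, Cxcl1 3.48 and 3.97, Saa3 4.90 and 6.15, Mt2 1.85 and 2.69, Hmox1 1.47 and 3.31, and Mki67 1.85 and 2.14. Falls stood at -2.77 and -1.72 for Ear2 and at -2.03 and -2.16 for Igfbp3. Heat shock genes had 0 of 17 called higher after CuO PEG 40, 5 after CuO PEG 10 and 9 after CuO 10, and the differences between these counts were not tested.

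**Figure D4:**
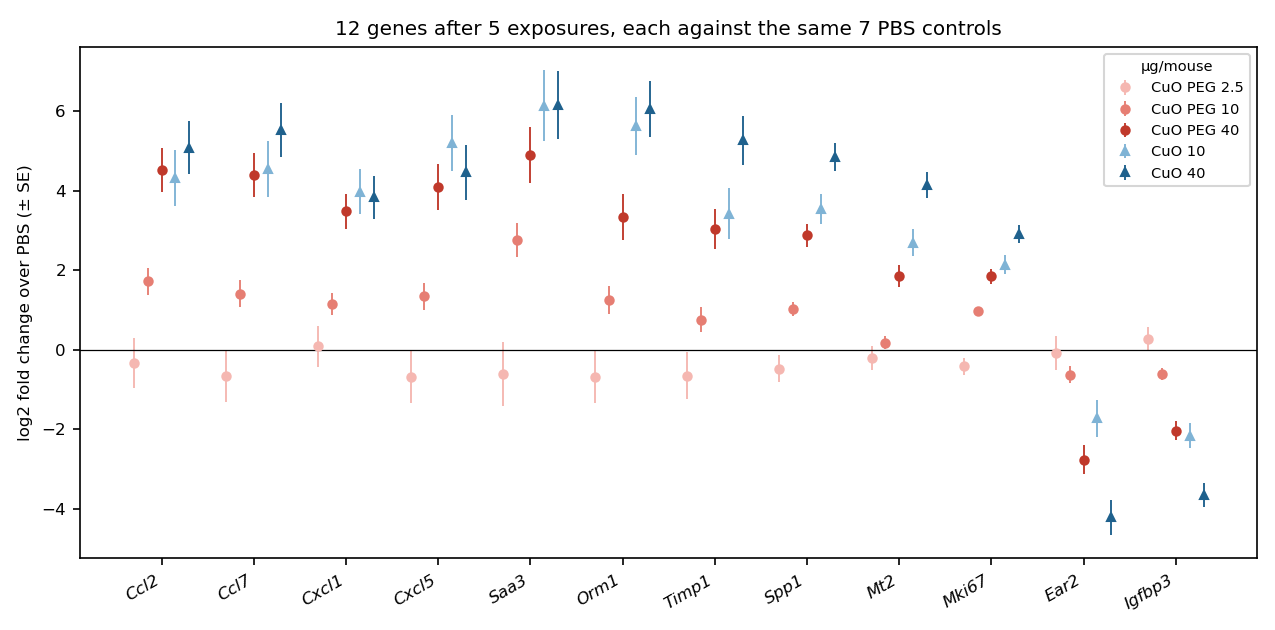
Log2 fold change over the 7 PBS controls (vertical axis, bars are SE) of 12 genes after CuO PEG at 2.5, 10 and 40 μg/mouse (circles) and core CuO at 10 and 40 μg/mouse (triangles). For Ccl2 the circles climb from -0.33 to 4.52 and the triangles stand at 4.32 and 5.08, while for Mt2 they reach 1.85 and 4.14.

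The same dose of CuO PEG was also given with OVA, to other mice with other controls. OVA with CuO PEG 40 against OVA alone (3 against 8 samples) gave 147 called genes (0.642%), 90 higher (0.393%) and 57 lower (0.249%). Ccl2 rose by 2.67 ± 0.56 (adjusted p = 0.0296), Orm1 by 2.72 ± 0.59 (adjusted p = 0.0318) and Gpnmb, a glycoprotein of lipid-laden macrophages, by 2.93 ± 0.50 (adjusted p = 0.0113). Metallothioneins rose too, Mt1 by 1.06 (0.72 to 1.40) and Mt2 by 1.38 (0.81 to 1.94). Falls were led by the red cell genes Hbb-bt (-2.58 ± 0.43), Hbb-b1 (-2.55 ± 0.50) and Alas2, the first enzyme of haem synthesis (-2.27 ± 0.41). Ear1 (-1.45 ± 0.34) and Igfbp3 (-1.40, -1.91 to -0.88) fell as well. Genes called under PBS that did not pass with OVA included Cxcl1 (0.82, -0.11 to 1.75, adjusted p = 0.4657), Timp1 (0.20, -0.86 to 1.25, adjusted p = 0.914), Ccl17 (0.05, -0.68 to 0.78, adjusted p = 0.973) and Mki67 (0.51, 0.12 to 0.89, adjusted p = 0.231), and of 32 cell cycle genes 1 was called. These changes are over OVA controls, in which the study reported Ccl17 as already higher than in PBS controls. The count was 30, 434 and 9 without CuO PEG 40 + OVA replicate 1, 2 and 3, and 89, 81 and 39 without OVA replicate 3, 6 and 7.

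Whether the effect of CuO PEG 40 differed between the challenges was tested as an interaction, for which limma called 0 genes (0%), with 1118 at an unadjusted p below 0.05. The count was 24 without OVA replicate 7, 4 without CuO PEG 40 + OVA replicate 3, 193 where arrays were modelled as random and 248 with slide and position in place of the array. For Cxcl1 the effect with OVA was lower by 2.66 (95% interval -3.99 to -1.34, adjusted p = 0.432), for Timp1 by 2.85 (-4.35 to -1.34, adjusted p = 0.514), for Mki67 by 1.34 (-1.90 to -0.79, adjusted p = 0.265) and for Ccl17 by 2.28 (-3.31 to -1.24, adjusted p = 0.341). For Mt2 the difference was -0.47 (-1.27 to 0.33) and for Igfbp3 0.63 (-0.10 to 1.37). None of these passed over all genes.

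**Figure D5:**
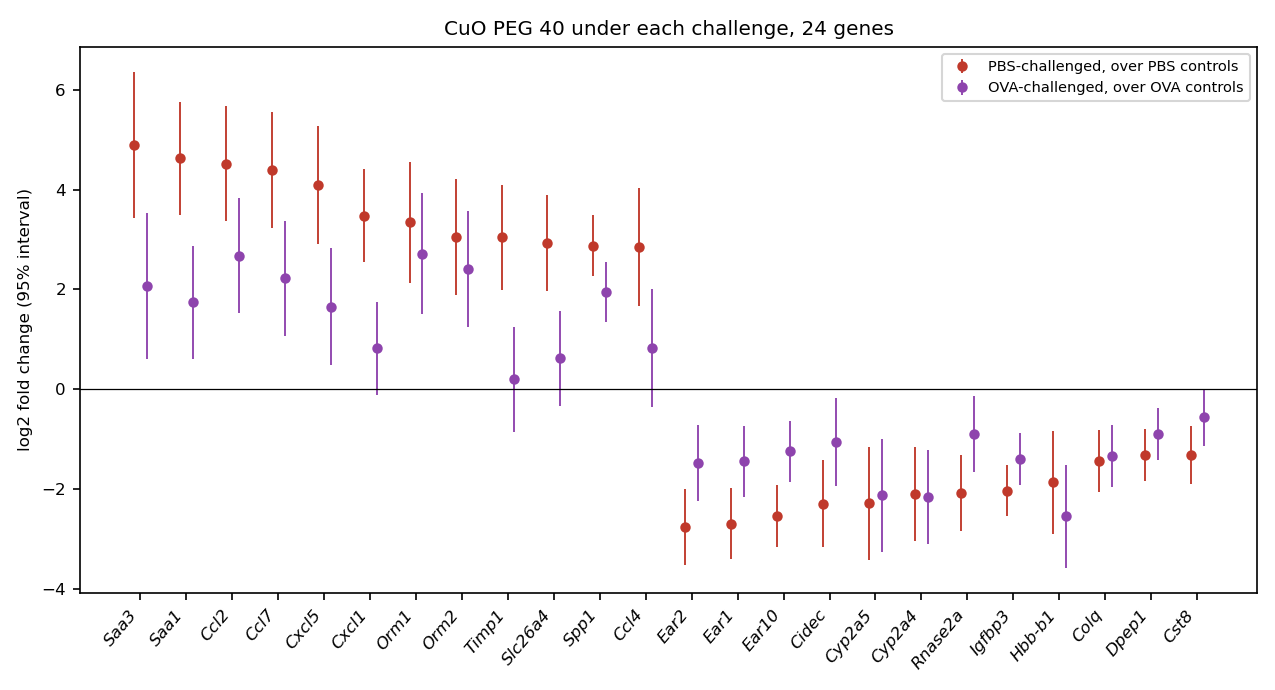
Log2 fold change (vertical axis, bars are 95% intervals) of the 12 largest rises and the 12 largest falls after CuO PEG 40, in PBS-challenged mice over PBS controls and in OVA-challenged mice over OVA controls. Cxcl1 stands at 3.48 under PBS and 0.82 under OVA, while Orm1 stands at 3.35 and 2.72.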

How the data were processed

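RNA of 89 samples was measured on 2-colour mouse expression arrays, 1 sample per channel. The authors extracted spot intensity from scans with Agilent Feature Extraction (version 12.0.2.2 per the file headers), and also deposited quantile-normalised log2 values, used here as an alternative. From the deposited median foreground intensity, without background subtraction and without control or outlier spots, log2 values were quantile normalised and averaged over probes of a RefSeq gene (56605 probes in all, 22911 genes). A single limma fit (limma 3.58.1, statmod 1.5.0, R 4.3.3) held 26 groups, dye and array as terms, with moderated variances and Benjamini-Hochberg adjustment over all genes. Called genes differed by more than 0.58 on the log2 scale, up or down, with adjusted p under 0.05. Intervals are 95%. Arrays carry no read depth, and the number of arrays limits the precision. The script was tested on simulated data, where for CuO PEG 40 against PBS 91 of 100 genes changed by 1 log2 and 99 of 100 changed by 2 were called, with 5 false calls. Of 100 genes changed by 1 log2, 62 were called against CuO 40, 85 against CuO PEG 10 and 60 against CuO 10. False calls in these were 12, 8 and 11. Groups came from the labels.

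The members and gene lists were chosen with earlier results of these data known. Named genes were the 12 largest rises and 12 largest falls called without overlap, up to 4 called members of each list and defining members that were not called, the cytokines and mucins the study itself measured, and the 3 largest rises and falls of each other comparison. Further list members are named with their values to fill out a list, chosen after their values were seen. Alternatives were other background, normalisation, filter, probe and batch choices and leaving out each sample. Replicate numbers were not used to pair samples in the main fit. Probes without a RefSeq gene (23611) were tested but not named.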

Additional observations from a re-analysis of the deposited data

Results flagged for a closer look

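Among the 89 named genes, 8 had 1 control far from the other 6 (Dixon's test at 95%, which flags about 1 in 20 groups by chance). Control replicate 4 was the high one in 5 of them: Saa1 at 9.407, Ccl4 at 7.998, Ccl3 at 8.069, Mt2 at 12.14 and Dmbt1 at 7.232 log2 normalised intensity. Control replicate 3 was high in Colq at 11.99. The low ones were control replicate 6 in Muc5b at 9.523 and control replicate 1 in Hmox1 at 8.171.

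Of 23611 probes with no matched RefSeq gene, 126 were called in CuO PEG 40 against PBS (0.534%), 67 higher and 59 lower. Of 32994 probes with a gene, 553 were called (1.68%).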

How the results depend on the processing

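Of 89 named genes, 73 were called in CuO PEG 40 against PBS, and 30 of those stayed called in all 20 alternative settings. Of 1460 values of the called genes under these settings, 1286 kept direction and call, 174 kept the direction but not the call, and 0 changed direction. The count of 499 called genes was 478 with normexp background, 605 with loess, 548 without dim probes, 525 with the brightest probe, 509 in the deposited table and 515 with ComBat. It was 838 with arrays as a random block, 698 with slide and position in place of the array and 163 with the 4 controls of slides 4 to 6. Leaving out 1 sample at a time gave 272 (without CuO PEG 40 replicate 2) to 567 (without PBS replicate 1).

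The other comparisons depended more on the batch terms. Against CuO 40 (466) the count was 741 with loess, 1777 with random arrays, 1005 with slide and position, and 0 (without CuO 40 replicate 2) to 459 with 1 sample left out. Against CuO PEG 10 (20) it was 34 with loess, 10 with ComBat, 342 with random arrays, 311 with slide and position, and 0 (without CuO PEG 40 replicate 2) to 38 (without CuO PEG 40 replicate 1) with 1 sample left out. Against CuO 10 (0) it was 730 with random arrays, 29 with slide and position, and 0 with any 1 sample left out. With OVA (147) it was 41 with loess, 423 with random arrays, 299 with slide and position, and 9 (without CuO PEG 40 + OVA replicate 3) to 434 (without CuO PEG 40 + OVA replicate 2). For the interaction (0) it was 193 with random arrays, 248 with slide and position, and 0 to 24 (without OVA replicate 7). The cause was not tested.

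Same-numbered exposed and control samples had correlations of -0.0489 to 0.0295, and other pairs -0.146 to 0.191. With only 3 exposed samples to pair, these values cannot exclude a pairing, and none was seen. A fit with the replicate number as a block, with dye and no array term, called 1628 genes against PBS, 1869 against CuO 40, 375 against CuO PEG 10, 897 against CuO 10, 1512 with OVA and 185 for the interaction.

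Changes of direction were seen in genes that were not called. Il4 was at 0.19 with loess. Muc5ac was at 0.23 and Ltf at 0.0427 with random arrays, and at 0.35 and 0.0684 with slide and position. With the replicate block Ccl11 was at -0.82, Muc5ac at 0.31 and Gzma at 0.11. With the controls of slides 4 to 6 Ccl11 was at -0.22, Muc5ac at 0.0090, Muc5b at 0.14, Gzma at 0.098 and Ltf at 0.61. With 1 sample left out the log2 fold change ran from -0.0215 (without PBS replicate 2) to 0.51 for Ccl11, from -0.25 to 0.0260 (without CuO PEG 40 replicate 2) for Il13, from -0.47 to 0.12 (without PBS replicate 5) for Il4, from -0.43 to 0.0932 (without PBS replicate 5) for Muc5b, from -0.35 to 0.40 (without CuO PEG 40 replicate 1) and 0.08 (without PBS replicate 3) for Gzma, and from -0.56 to 0.32 (without PBS replicate 2) for Ltf.

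The count of genes whose exposed samples lay outside the range of the controls was 4599 with batch terms removed and 2606 without. Without control replicate 4, a setting chosen after seeing the data, 28 cell cycle genes and 6 wound matrix genes were called. Signal limits genes near background: 418 of the 499 called genes were well above background in all 10 samples.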
